A study of Mus musculus with 2 samples.

Results

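HOX genes encode homeodomain transcription factors and lie in 4 clusters in the mouse genome. The measurements here cover 10 of them, Hoxa3, Hoxa5, Hoxa7, Hoxa9 and Hoxa10 of the HOXA cluster and Hoxb2, Hoxb3, Hoxb4, Hoxb5 and Hoxb6 of the HOXB cluster, out of 31053 genes in the deposited matrix. They were listed by name, not by a cut on any value in these cells. The cells were LSK cells, the Kit-positive and Sca-1-positive fraction of marrow without lineage markers, which holds stem cells and multipotent progenitors. They came from 4 young (3 to 5 months) and 4 old (22 to 28 months) C57BL/6JRj mice, for which the labels give no further allele or treatment, and each age made up 1 CITE-Seq library. CITE-Seq counts, for each cell, its transcripts and the DNA tags of antibodies bound to its surface as unique molecular identifiers (UMIs). No label or text pairs the barcode suffixes 1 and 2, which mark the libraries, with an age, so old and young cells were not compared. A difference between the suffixes is a difference between 2 libraries, in which age and library cannot be told apart.

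In the embryo, HOX genes are transcribed in the order in which they lie along their chromosome and give cells their place along the body axis. In blood, genes of the 3′ and middle parts of the HOXA and HOXB clusters are known to be active in stem and early progenitor cells and to be shut down as cells mature. HOXA9, HOXA10 and HOXB4 are known to drive the growth of these cells when supplied in excess, and Hoxb5 transcription has been used to mark long-term stem cells. HOX proteins bind DNA together with TALE partners of the PBX and MEIS families, and the MLL and Polycomb complexes hold the clusters open or closed.

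The HOXA cluster lies on chromosome 6 on the minus strand (Hoxa3 at chr6:52169062-52213336 to Hoxa10 at chr6:52231197-52240854, GRCm38), and the HOXB cluster on chromosome 11 on the plus strand (Hoxb6 at chr11:96292476-96301569 to Hoxb2 at chr11:96350525-96354012). To set the members beside what lies before their starts, the 250 bases upstream are shown for Hoxb4 and Hoxa5, which were more abundant in the stem cell gate described next, for Hoxa9, which was not, and for Hoxb8, a neighbour of the HOXB members with a large gate difference. They are RefSeq sequences of GRCm38.p6, written 5′ to 3′ along the gene's strand. Capitals mark matches on either strand to the box CCAAT, the E-box CACGTG, a form shared by HOX and PBX sites (TGATNNAT), the TATA form TATAAA and the homeodomain core TAATTA.
Hoxb4, chr11:96318017-96318266, plus strand: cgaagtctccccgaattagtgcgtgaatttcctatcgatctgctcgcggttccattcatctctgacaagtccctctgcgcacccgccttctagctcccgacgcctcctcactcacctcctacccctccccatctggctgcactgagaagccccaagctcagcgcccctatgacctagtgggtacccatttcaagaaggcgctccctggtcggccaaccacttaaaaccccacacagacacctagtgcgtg
Hoxb8, chr11:96281655-96281904, plus strand: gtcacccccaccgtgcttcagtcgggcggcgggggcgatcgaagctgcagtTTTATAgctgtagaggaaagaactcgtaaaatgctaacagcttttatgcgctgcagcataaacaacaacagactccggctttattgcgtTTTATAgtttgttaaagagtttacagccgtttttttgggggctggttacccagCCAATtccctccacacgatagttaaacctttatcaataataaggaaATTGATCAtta
Hoxa5, chr6:52204588-52204837, minus strand: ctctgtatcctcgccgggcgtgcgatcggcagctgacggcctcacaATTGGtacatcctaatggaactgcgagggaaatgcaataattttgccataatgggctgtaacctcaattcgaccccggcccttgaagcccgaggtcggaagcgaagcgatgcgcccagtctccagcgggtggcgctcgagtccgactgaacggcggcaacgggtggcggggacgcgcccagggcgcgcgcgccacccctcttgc
Hoxa9, chr6:52227371-52227620, minus strand: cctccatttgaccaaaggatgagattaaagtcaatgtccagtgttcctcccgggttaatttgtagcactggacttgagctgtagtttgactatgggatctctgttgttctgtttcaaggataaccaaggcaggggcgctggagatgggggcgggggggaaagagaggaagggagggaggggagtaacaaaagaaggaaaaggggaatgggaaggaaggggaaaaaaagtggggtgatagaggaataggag
The Hoxb8 window held 2 matches to TATAAA, 1 to CCAAT and 1 to TGATNNAT, none of which overlapped another. The Hoxa5 window held 1 match to CCAAT, and the Hoxb4 and Hoxa9 windows held 0 matches to these 5 motifs. Of 32851 windows of this length, 33.9% held CCAAT, 6.02% the E-box, 7.68% the HOX and PBX form, 12.4% the TATA form and 4.84% the homeodomain core. The shown windows differed more in CpG dinucleotides, the sites of DNA methylation: 28 for Hoxa5 (more than in 92.4% of all windows), 14 for Hoxb4, 12 for Hoxb8 and 3 for Hoxa9 (more than in 29.0%). Windows were also given for Hoxa3 and Hoxa7, with 0 matches and 18 and 7 CpG, and for 2 starts of Hoxa10, with 20 and 7 CpG. Of the Hoxa10 windows, that with 20 CpG held a match to CCAAT and to TATAAA. The first bases after the Hoxa3 and Hoxa7 windows were found in no GENCODE transcript of these genes. The Hoxa9 window lies inside the annotated gene (chr6:52223100-52231089), so its letters describe an inner start. Hoxb2, Hoxb3, Hoxb5 and Hoxb6 had no entry. No chromatin was measured, and these matches describe the letters alone.

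Cells with under 10% mitochondrial UMIs and over 1500 genes were kept, and 3986 of these had tag values, 1497 of suffix 1 (27073429 UMIs in all) and 2489 of suffix 2 (43434366 UMIs). The suffixes shared 0 barcodes. Cells were placed in 4 gates by the tags for CD150, a SLAM receptor found on stem cells, and CD48, a SLAM family protein gained by progenitors. CD150-high cells lay at or above the 75th percentile of that tag in their suffix, and CD48-low cells at or below the 25th percentile of theirs. The conventional stem cell gate, CD150-high CD48-low, held 172 cells of suffix 1 and 383 of suffix 2. CD150-low CD48-low held 204 and 250 cells, CD150-high CD48-high 209 and 241, and CD150-low CD48-high, the gate of most multipotent progenitors, 912 and 1615. These gates are ranks, not fixed amounts of protein: CD150-high began at 40 tags in suffix 1 and at 407 in suffix 2, and CD48-low ended at 224 and 42 tags.

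The gates used no transcript, and levels are UMIs of a gene per 1000000 UMIs of the cells (CPM), given for suffix 1 and then suffix 2 throughout. Procr, which encodes the endothelial protein C receptor of stem cells, gave 115 and 246 CPM in CD150-high CD48-low cells and 37.7 and 57.5 in CD150-low CD48-high cells. Flt3, the receptor that marks lymphoid-primed progenitors, gave 13.3 and 2.09 against 255 and 145. Summed over 6 stem cell markers these gates gave 908 and 1053 against 505 and 351 CPM, and over 4 lymphoid progenitor markers 25.8 and 5.89 against 849.8 and 494. The stem cell markers did not single out the stem cell gate in both libraries, since CD150-low CD48-low cells gave 971 and 976 CPM and CD150-high CD48-high cells 711 and 913. The 4 myeloid progenitor markers gave 483 and 1007 against 811 and 1259, and the 4 erythroid and megakaryocyte progenitor markers were highest in CD150-high CD48-high cells, at 80.6 and 298. Of the mature types, T cell, B cell and neutrophil genes reached at most 0.396, 6.33 and 5.39 CPM in any gate of either suffix, with 0 UMIs of the T cell gene Cd3e. The 2 hemoglobin genes gave 106 in CD150-low CD48-low cells of suffix 2 and at most 6.46 elsewhere, and 4 plasma cell genes gave 582 and 5096 in CD150-low CD48-high cells against 104 and 229 in CD150-high CD48-low cells.

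Each of the 5 HOXB genes was more abundant in CD150-high CD48-low cells than in CD150-low CD48-high cells, by 2.04-fold to 9.26-fold over both suffixes, whereas the 5 HOXA genes spanned 0.831-fold to 2.26-fold. With a gene called at a ratio of at least 2, 6 of the 10 members were higher in the stem cell gate, where 9.52% of 12243 genes with at least 50 UMIs were. They were the 5 HOXB genes and Hoxa5. Lower by at least 2-fold were 0 members and 9.15% of all genes. Just above the limit were Hoxb4 (2.04) and Hoxa5 (2.26), and just below it Hoxa10 (1.79) and Hoxa3 (1.71). The median log2 ratio was 2.09 for the HOXB members, 0.78 for the HOXA members and -0.03 for all genes. In suffix 1 alone 3 of 9 members with enough UMIs passed, against 4.77% of genes, and in suffix 2 alone 6 of 10, against 9.72%. Hoxb5, 1 of the 3, reached 50 UMIs in suffix 1 only with those of the stem cell gate (39, beside 29 in the other gate), so that count is a description. No test was run, since the 2 libraries differ in age and are not replicates of a condition, and every interval given in parentheses is a 95% interval for counting error only.

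**Figure D1:**
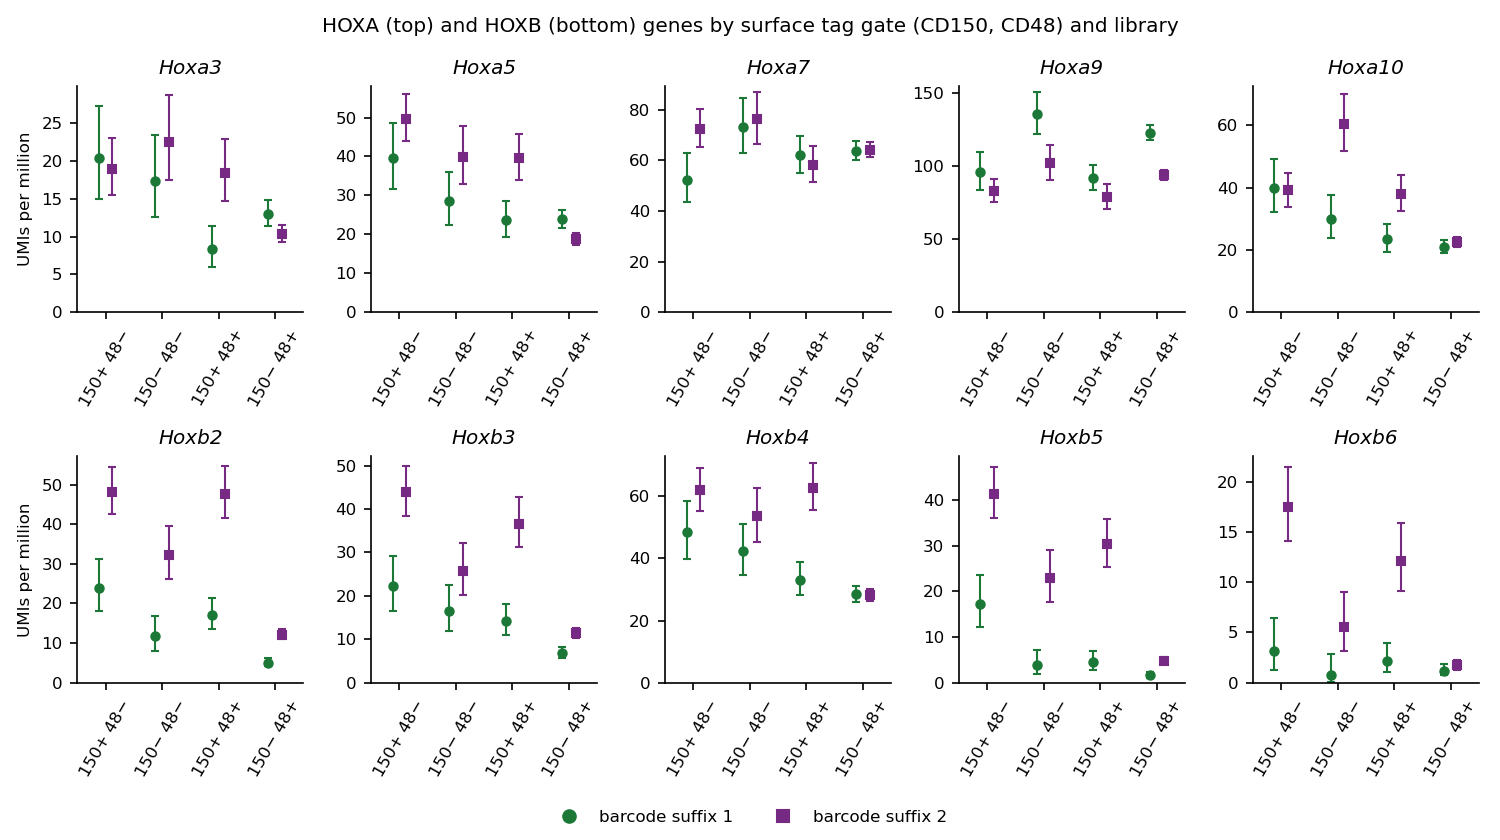
UMIs per 1000000 UMIs (CPM) of each HOXA member (top) and HOXB member (bottom) in the 4 tag gates, with circles for suffix 1, squares for suffix 2 and bars for 95% counting intervals (+ for high and − for low tags). In both suffixes Hoxb2, Hoxb3 and Hoxb5 were highest in CD150-high CD48-low cells and lowest in CD150-low CD48-high cells, and Hoxa7 and Hoxa9 did not follow this order.

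Hoxb5 had the largest ratio of the members over both suffixes and in suffix 1, and Hoxb6 in suffix 2. It gave 17.3 and 41.4 CPM in CD150-high CD48-low cells and 1.64 and 4.86 in CD150-low CD48-high cells, and the ratio was 10.5 (6.35 to 17.7) in suffix 1 and 8.51 (6.88 to 10.5) in suffix 2. Cells high for both tags gave 4.51 and 30.4 CPM and cells low for both 3.96 and 22.9, so in each suffix these gates lay between the others.

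Hoxb6, the member with the fewest UMIs (256 over all gates), gave 3.11 and 17.5 CPM in CD150-high CD48-low cells and 1.19 and 1.75 in CD150-low CD48-high cells. The ratio in suffix 2 was 9.98 (7.05 to 14.2). In suffix 1, with 7 and 21 UMIs, the ratio of 2.61 (0.938 to 6.37) was not resolved from 1.

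Hoxb2 gave 24.0 and 48.2 CPM in CD150-high CD48-low cells and 5.10 and 12.2 in CD150-low CD48-high cells, for ratios of 4.70 (3.29 to 6.66) and 3.97 (3.37 to 4.66). Hoxb3, its neighbour, gave 22.2 and 43.9 against 6.86 and 11.4, with ratios of 3.24 (2.28 to 4.54) and 3.83 (3.23 to 4.54). The intervals of these neighbours overlapped in both libraries. For Hoxb2 the CD150-high CD48-high gate gave 17.2 and 47.7 CPM, and the stem cell gate over it gave 1.39 (0.969 to 1.99) and 1.01 (0.839 to 1.22), so these gates were not resolved in either library.

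Hoxb4 had the smallest ratio of the HOXB members. Its levels were 48.4 and 61.9 CPM in CD150-high CD48-low cells and 28.6 and 28.1 in CD150-low CD48-high cells, for ratios of 1.69 (1.36 to 2.09) and 2.20 (1.93 to 2.50). The ratio intervals of Hoxb4 and Hoxb5 did not overlap in either suffix. Among the HOXB members, 4 of 5 were highest in the CD150-high CD48-low gate in each suffix. The exception was Hoxb4, which in suffix 2 gave 62.8 CPM (55.6 to 70.6) with both tags high, not resolved from the stem cell gate (55.4 to 69.0). For Hoxb6 in suffix 1 the order rested on 7 UMIs, at 1.25 to 6.40 CPM against 1.03 to 3.95 with both tags high. The share of all genes highest in the stem cell gate was not counted, so these places describe the members alone.

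Among the HOXA genes, Hoxa5 came closest to the HOXB pattern. It gave 39.5 and 49.7 CPM in CD150-high CD48-low cells and 23.9 and 18.7 in CD150-low CD48-high cells, for ratios of 1.65 (1.299 to 2.08) and 2.65 (2.29 to 3.08). It was the 1 HOXA member that was highest in the stem cell gate in each suffix. Hoxa10 gave 40.0 and 39.1 against 21.1 and 22.6, with ratios of 1.89 (1.49 to 2.39) and 1.73 (1.48 to 2.03), but its highest level in suffix 2 was 60.4 CPM in CD150-low CD48-low cells. Hoxa3 gave 20.4 and 19.0 against 13.04 and 10.3, with ratios of 1.57 (1.12 to 2.16) and 1.84 (1.45 to 2.31).

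Hoxa7 and Hoxa9 stood apart from these 3 genes. Hoxa7 gave 52.4 and 72.5 CPM in CD150-high CD48-low cells and 63.7 and 64.3 in CD150-low CD48-high cells, and the ratio lay on different sides of 1 in the libraries, at 0.822 (0.674 to 0.995) and 1.13 (1.01 to 1.26). Hoxa9 gave 96.3 and 82.8 against 123 and 94.1, with ratios of 0.784 (0.679 to 0.902) and 0.880 (0.794 to 0.974). It was the 1 member lower in CD150-high CD48-low cells in both suffixes. Its highest level stood in CD150-low CD48-low cells, at 136 and 102 CPM.

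In the remaining gates, again over CD150-low CD48-high cells, 4 of 10 members were at least 2-fold higher in CD150-high CD48-high cells, against 5.67% of all genes. They were Hoxb2, Hoxb3, Hoxb5 and Hoxb6. In suffix 1 alone 3 of 9 members with enough UMIs passed, against 2.29% of genes, and in suffix 2 alone 6 of 10, against 7.68%. In CD150-low CD48-low cells 5 of 10 were, against 5.67%, of which 1 was a HOXA gene, Hoxa10. This count differed between the libraries: in suffix 1 alone 2 of 8 passed, both HOXB genes, against 2.6% of genes, and in suffix 2 alone 7 of 10, of which 3 were HOXA genes, against 6.9%. These comparisons share the CD150-low CD48-high cells. In suffix 2, 8.30% of CD150-high CD48-high cells were called doublets, and without called doublets the HOXB sum of that gate was 2.43-fold that of CD150-low CD48-high cells, against 2.44-fold with them.

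Summed over the 5 genes of each cluster, HOXB gave 115 and 213 CPM in CD150-high CD48-low cells and 43.4 and 58.4 in CD150-low CD48-high cells. HOXA gave 249 and 263 against 245 and 210.0. The HOXB sum was thus higher in the stem cell gate in both libraries, with ratios of 2.65 (2.29 to 3.06) and 3.65 (3.38 to 3.93), and the HOXA sum gave 1.02 (0.929 to 1.11) and 1.25 (1.18 to 1.33). The HOXB ratio divided by the HOXA ratio was 2.61 (2.21 to 3.08) in suffix 1 and 2.91 (2.65 to 3.20) in suffix 2. Of the UMIs of the 10 genes, HOXB made up 31.6% and 44.7% in CD150-high CD48-low cells and 15.1% and 21.7% in CD150-low CD48-high cells. In CD150-high CD48-high cells the share was 25.3% and 44.8%, so in suffix 2 it was close to that of the stem cell gate, and the HOXB ratio divided by the HOXA ratio was 1.91 (1.65 to 2.22) and 2.93 (2.63 to 3.25). The HOXA direction depended on scaling. Cells of the stem cell gate held a median of 13334 UMIs in all and those of the CD150-low CD48-high gate 16343, and as UMIs per cell, unscaled, the HOXA sum was 0.821-fold and the HOXB sum 2.45-fold. Without 12 cells of over 10% immunoglobulin UMIs the HOXB ratio over both suffixes was 3.44 against 3.47 with them.

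The genes were then set in their order along the clusters. In suffix 2 the HOXB ratio of the members was smallest at Hoxb4, at 2.20, and larger on both sides. It was 3.83 and 3.97 at Hoxb3 and Hoxb2 towards the 3′ end, and 8.51 and 9.98 at Hoxb5 and Hoxb6 towards the 5′ end. The intervals given above overlapped for Hoxb3 and Hoxb2 and for Hoxb5 and Hoxb6, so a further rise with distance was not resolved among the members. In suffix 1 Hoxb4, Hoxb3 and Hoxb2 gave 1.69, 3.24 and 4.70, but the 5′ side went from 10.5 at Hoxb5 to 2.61 at Hoxb6, on few UMIs. The members thus did not keep the same order there. The next genes on the 5′ side, which are no members and were named after their values were seen, had larger ratios still in suffix 2. Hoxb7 gave 33.5 (14.8 to 88.5) in suffix 2, with 40 and 7 UMIs. Hoxb8, whose start is shown above, gave 95.5 (54.7 to 182), from 40.3 CPM in CD150-high CD48-low cells and 0.421 in CD150-low CD48-high cells. In suffix 1 Hoxb8 had 11 UMIs in the stem cell gate and 0 in the CD150-low CD48-high gate. With 3 counts over the other gate as the floor, it was 28.7-fold higher in the stem cell gate, a value that leaves out the counting error of the 11 UMIs. Hoxb9 had 70 and 0 UMIs over both suffixes, 150.4-fold higher by the same floor, again without the counting error of the 70 UMIs. At the ends of the cluster, Hoxb13 had 0 UMIs in the stem cell gate and Hoxb1 had 1 UMI.

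Along the HOXA cluster the members with ratios over 1.5, Hoxa3, Hoxa5 and Hoxa10, stood on both sides of Hoxa7 and Hoxa9. Paralog groups 3 and 5 have members in both clusters. Over both suffixes Hoxb3 had a larger ratio than Hoxa3, 3.82 (3.29 to 4.44) against 1.71 (1.42 to 2.06), and Hoxb5 a larger one than Hoxa5, 9.26 (7.62 to 11.3) against 2.26 (1.998 to 2.56). Members overlap other genes or share sequence with them, and reads from shared stretches may be left uncounted or placed with either gene. Hoxa3 shares 482 exon bases with Gm28308 on the same strand and Hoxa9 shares 57 stretches of 31 bases in its last 500 transcript bases with Hoxc5, Hoxc9 or Mir196b.

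**Figure D2:**
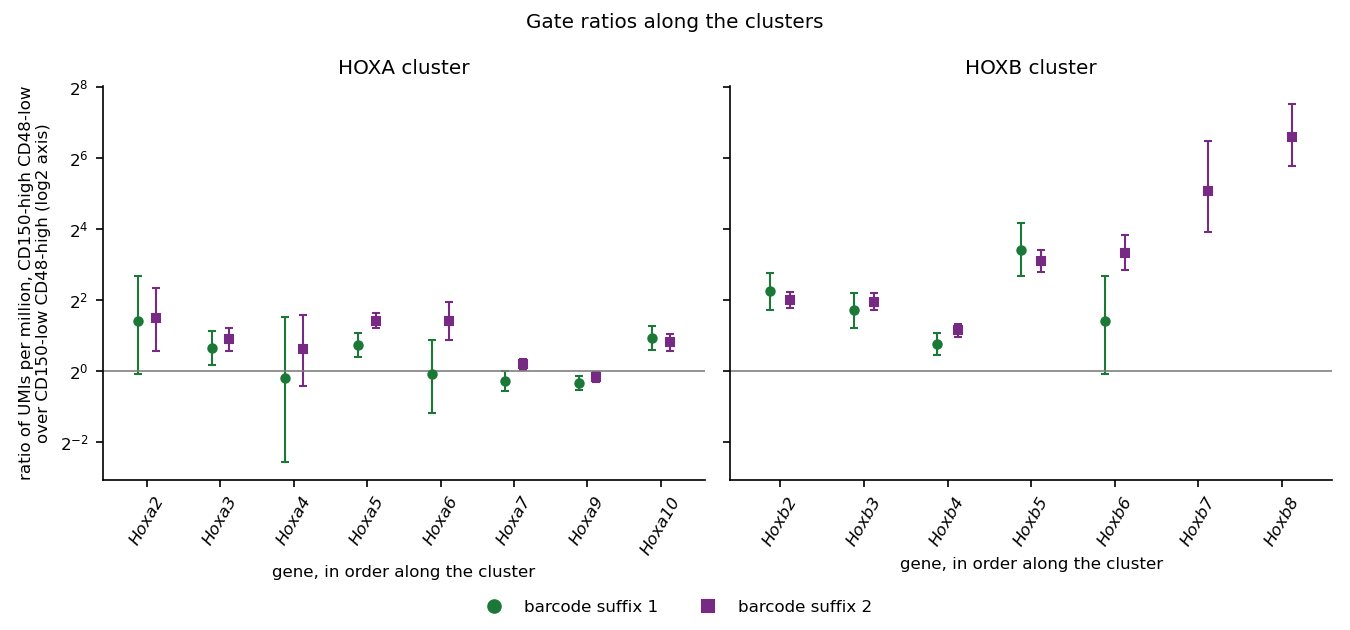
Ratio of CPM in CD150-high CD48-low over CD150-low CD48-high cells (log2 axis) for genes of each cluster, in order of paralog number from the 3′ end, with circles for suffix 1, squares for suffix 2 and bars for 95% counting intervals, for genes with at least 20 UMIs over both gates and a UMI in each. HOXA ratios reached at most 2.77 (Hoxa2, suffix 2), and HOXB ratios of suffix 2 lay between 2.20 at Hoxb4 and 95.5 at Hoxb8.

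The cells of each suffix were also split into 5 bins of equal size by each tag, to show the levels between the gate limits. From the lowest to the highest CD150 bin the HOXB sum went from 40.6 to 91.0 CPM in suffix 1, a ratio of 2.24 (1.90 to 2.66), and from 49.8 to 213 in suffix 2, a ratio of 4.27 (3.85 to 4.75). In suffix 2 the 3 lowest bins gave 49.8, 52.6 and 62.2 CPM and the next one 129. The bin at 62.2 (57.2 to 67.5), with a median of 18 CD150 tags, was already above the lowest bin (45.3 to 54.6), and the bin at 129 had a median of 242. In suffix 1 the bins gave 40.6, 39.2, 54.9, 59.0 and 91.0 CPM. Along CD48 the HOXB sum was lower in each next bin of both suffixes, from 95.2 to 33.5 CPM in suffix 1 and from 196 to 38.8 in suffix 2.

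The HOXA sum had no common direction along CD150. The highest bin over the lowest gave 0.808 (0.748 to 0.873) in suffix 1 and 1.18 (1.11 to 1.26) in suffix 2. Along CD48 the ratio was under 1 in both, at 0.833 (0.770 to 0.901) and 0.631 (0.593 to 0.672). Along CD48 the HOXA genes divided as they did over the gates: Hoxa3, Hoxa5 and Hoxa10 gave ratios of 0.270 to 0.560 for the highest over the lowest CD48 bin, and Hoxa7 and Hoxa9 of 0.858 to 1.04. Along CD150 this division did not hold in suffix 1, where Hoxa3 gave 0.911 (0.658 to 1.26) and Hoxa7 0.883 (0.756 to 1.03). There Hoxa9 gave 0.590 (0.525 to 0.662) in suffix 1 and 0.815 (0.735 to 0.902) in suffix 2, whereas Hoxb5 gave 17.1 (5.56 to 85.6) and 12.5 (8.54 to 19.0).

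**Figure D3:**
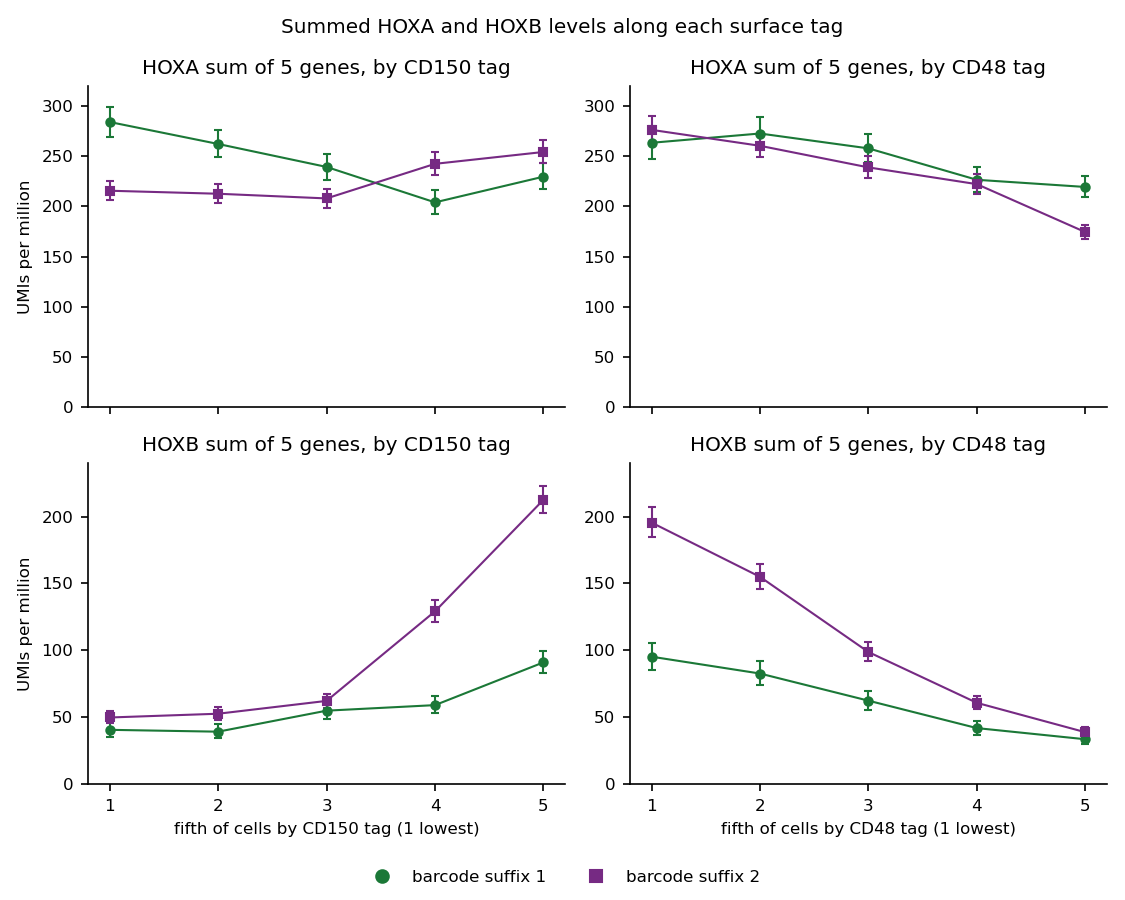
Summed CPM of the 5 HOXA members (top) and 5 HOXB members (bottom) in 5 equal bins of the cells of each suffix by CD150 tag (left) and CD48 tag (right), with circles for suffix 1, squares for suffix 2 and bars for 95% counting intervals. The HOXB sum reached 213 in the highest CD150 bin of suffix 2 and 91.0 in that of suffix 1, and the HOXA sum stayed between 174 and 284 in all bins.

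A summed level does not say how many cells carry a transcript, and detection moves with depth, so cells were thinned to 9000 UMIs each, which left out 36 shallower cells in the stem cell gate and 92 in the CD150-low CD48-high gate. At that depth a CD150-high CD48-low cell had UMIs of 0.833 and 1.52 HOXB members on average, and a CD150-low CD48-high cell of 0.363 and 0.497. For HOXA members the means were 1.62 and 1.79 against 1.54 and 1.45. The gates thus differed in the number of HOXB genes seen per cell more than in that of HOXA genes.

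At least 1 HOXB UMI was found in 57.7% (49.5 to 65.6) and 79.3% (74.8 to 83.4) of thinned CD150-high CD48-low cells and in 32.0% and 39.5% of CD150-low CD48-high cells. Cells high for both tags gave 48.5% (41.5 to 55.6) and 81.9% (76.4 to 86.6), and cells low for both 45.9% (38.2 to 53.7) and 70.8% (64 to 77.0). In each suffix these intervals overlapped that of the stem cell gate. Unthinned, the shares of the first 2 gates were 70.3% and 89.8% against 50.1% and 59.2%. Hoxb5 alone was found in 12.8% (8.01 to 19.1) and 29.8% (25.1 to 34.7) of thinned CD150-high CD48-low cells against 1.59% and 4.24%, and unthinned in 17.4% and 42.3% against 3.07% and 8.42%. The immunoglobulin-rich cells, of a type that should lack HOXB transcripts, were deeper (a median of 34073 UMIs) and had a UMI of each HOXB member in 0 of 12 cells, which allows a share of up to 25%, and of each HOXA member in 1 or 2 cells. So few cells set no useful background for the shares above.

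Pairs of genes were then compared within thinned cells of the stem cell gate. For 19 pairs of HOX genes, the cells with both were set against the product of the shares of each, and 13 of 19 pairs in suffix 1 and 16 of 19 in suffix 2 were seen together in more cells than that product. Cells of a gate share their library and many pairs share a gene, so these counts are a description. Pairs of other genes were not counted in this way, so the counts are not read as a trait of HOX genes. Several products in suffix 1 were under 1 cell, such as 0.038 for Hoxb8 and Hoxb9, which were seen together in 1 cell. In suffix 2, Hoxb4 was found in 58 of 108 cells with Hoxb5 (53.7%) and in 98 of 255 cells without it (38.4%), and Hoxa7 in 102 of 186 cells with Hoxa9 (54.8%) and in 71 of 177 without it (40.1%). Both examples were chosen after their values were seen. In this gate cells with and without a HOXB UMI had 2.34 and 1.91 HOXA UMIs per cell in suffix 1 and 2.43 and 2.44 in suffix 2, ratios of 1.23 (0.980 to 1.54) and 0.996 (0.845 to 1.18). In CD150-low CD48-high cells the same ratios were 1.13 (1.03 to 1.24) and 1.09 (1.02 to 1.17).

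The libraries were set side by side within the gates. In CD150-high CD48-low cells the HOXA sum of suffix 2 over suffix 1 was 1.06 (0.959 to 1.17), and the HOXB sum 1.85 (1.62 to 2.13). At least 2-fold higher in suffix 2 were 3 of 10 members, where 3.09% of 9435 genes were. They were Hoxb2, with a ratio of 2.01 (1.49 to 2.75), Hoxb5, with 2.39 (1.69 to 3.45), and Hoxb6, with 5.62 (2.62 to 14.4). Hoxb3 stood just below at 1.98 (1.45 to 2.74) and Hoxb4 at 1.28 (1.03 to 1.60). The HOXA members ranged from 0.859 (Hoxa9) to 1.38 (Hoxa7). In this gate Hoxb5 had 39 UMIs in suffix 1 and 218 in suffix 2, and Hoxb6 had 7 and 92. Both thus reached 50 UMIs only with those of suffix 2, so the count of 3 members is a description. In the other gates the HOXB sum of suffix 2 over suffix 1 was 2.67 (2.35 to 3.04) with both tags high, the largest of the 4 gates, 1.85 (1.55 to 2.21) with both low and 1.35 (1.24 to 1.47) in CD150-low CD48-high cells. In the stem cell gate the neighbours Hoxb8 and Hoxb9 differed by 8.24 (4.51 to 16.8) and 9.55 (3.13 to 47.5), the latter with 67 and 3 UMIs.

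The gate limits differed between the libraries as well. With the same limits for both (CD150-high from 161 tags, CD48-low up to 75), the stem cell gate held 33 cells of suffix 1 and 614 of suffix 2, and the HOXB sum was 165 and 205 CPM, a ratio of 1.24 (0.972 to 1.62). The HOXA sum then gave 1.02 (0.836 to 1.25). Of its members, Hoxa7 gave 2.27 (1.29 to 4.42), on 12 UMIs in suffix 1, and the intervals of the other HOXA members included 1. In CD150-low CD48-high cells gated in this way the HOXB ratio was 0.998 (0.922 to 1.08), with both tags high 1.53 (1.32 to 1.77) and with both low 1.70 (1.06 to 2.89). The gap between the libraries in the HOXB sum of the stem cell gate was thus smaller, and its interval included 1, when the limits were shared. This did not hold for each gene: Hoxb6 gave 5.93 (1.05 to 236) and Hoxb8 6.44 (1.77 to 53.5) with shared limits, on 1 and 2 UMIs in suffix 1.

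**Figure D4:**
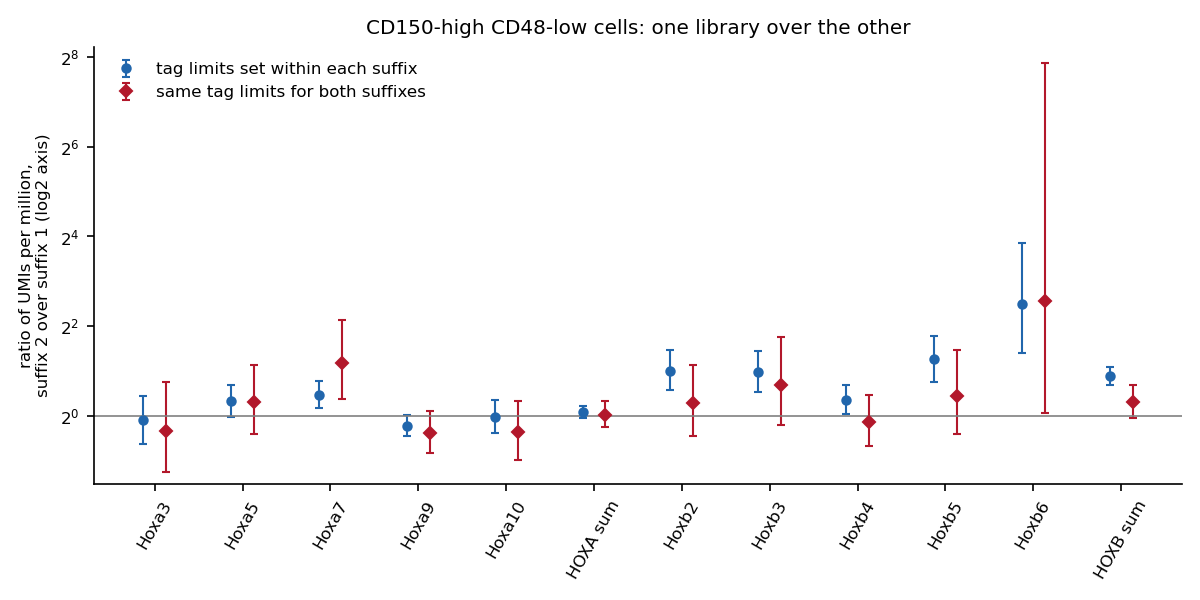
Ratio of CPM in suffix 2 over suffix 1 (log2 axis) for each member and for the HOXA and HOXB sums in CD150-high CD48-low cells, with tag limits set within each suffix (circles) or the same for both (diamonds) and bars for 95% counting intervals. The HOXB sum lay at 1.85 with limits set within each suffix and at 1.24 with the same limits, and the HOXA sum at 1.06 and 1.02.

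The CD150-low CD48-high gate holds several kinds of progenitor, and its HOX levels were read by their transcripts. Cells with a Flt3 UMI (809 and 1065) had a HOXB sum of 41.4 and 48.9 CPM and those without (103 and 550) one of 63.9 and 82.1, for ratios of 0.648 (0.524 to 0.809) and 0.595 (0.541 to 0.655). The HOXA sum gave 1.25 (1.11 to 1.41) and 1.01 (0.956 to 1.07). By gene, Hoxa9 gave 1.61 (1.34 to 1.95) and 1.12 (1.03 to 1.22) and Hoxb2 0.360 (0.215 to 0.633) and 0.504 (0.409 to 0.622), so they lay on opposite sides of 1 in both libraries. Cells with at least 2 UMIs of Dntt, the terminal transferase of early lymphoid cells, gave HOXB ratios of 0.555 (0.477 to 0.644) and 0.524 (0.463 to 0.591) and HOXA ratios of 1.10 (1.04 to 1.17) and 1.06 (1.001 to 1.11). The cells with a Flt3 UMI were deeper, with a median of 17614 UMIs against 14072, as were those with at least 2 Dntt UMIs, with 20992 against 15126, and the part of depth in these ratios was not tested.

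**Figure D5:**
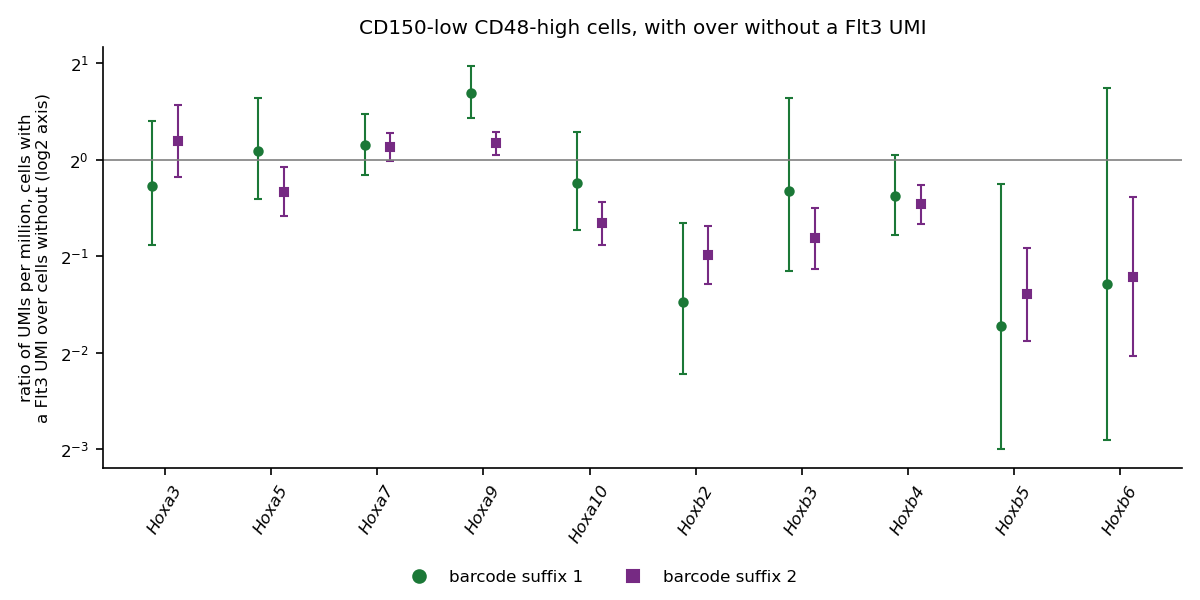
Ratio of CPM in CD150-low CD48-high cells with over without a Flt3 UMI (log2 axis) for the 10 members, with circles for suffix 1, squares for suffix 2 and bars for 95% counting intervals. Hoxa9 lay above 1 in both suffixes (1.61 and 1.12), and Hoxb5 below it (0.303 and 0.380).

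Genes that work with HOX proteins or act on their clusters were described over the stem cell gate and the CD150-low CD48-high gate, by list. Among the TALE genes, Meis1, whose product binds DNA with HOX proteins, gave 344 and 359.8 CPM against 226 and 243, for ratios of 1.52 (1.41 to 1.64) and 1.48 (1.41 to 1.56).

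Of 9 genes for MLL and its cofactors, 1 was at least 2-fold higher and 0 were lower, beside 9.52% and 9.15% of all genes. It was Mllt3, whose product reads acetylated histones for elongation complexes, at 200.2 and 283 CPM against 31.5 and 33.3, for ratios of 6.35 (5.598 to 7.21) and 8.49 (7.84 to 9.20). Kmt2a, which encodes MLL itself, gave 1.34 (1.20 to 1.495) and 1.38 (1.28 to 1.49). Of 14 Polycomb genes, 2 were higher (Ezh1 and Cbx7) and 2 lower (Ezh2 and Cbx2), again beside 9.52% and 9.15% of all genes, with a median log2 ratio of -0.02. Ezh2, the histone methyltransferase that is abundant in dividing cells, gave 64.4 and 22.6 CPM against 144 and 133, and Ezh1, its paralog, 21.8 and 47.3 against 17.7 and 16.0. The 3 Cdx genes, which act on HOX genes in the embryo, had 0 UMIs in these gates.

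Of the 11 other HOXA and HOXB genes, 3 had 0 UMIs and 6 had at least 50 over both gates. Hoxb7 and Hoxb9, at 42 and 8 and at 70 and 0 UMIs, reached that number through the stem cell gate. So did Hoxb8, with 11 and 212 UMIs by suffix in that gate and 0 and 13 in the CD150-low CD48-high gate. No share of these genes was therefore read against all genes. Beside Hoxb7, Hoxb8 and Hoxb9, given above, Hoxa2 gave 2.71 (1.61 to 4.45), Hoxa6 1.94 (1.41 to 2.63) and Hoxa4 1.32 (0.706 to 2.33). Of the 19 HOXC and HOXD genes, 13 had 0 UMIs and 1 could be compared, Hoxc6, at 4.75 (3.26 to 6.86). Of 8 noncoding transcripts of the clusters, 4 had 0 UMIs, and of the other 4, 1 was at least 2-fold higher, beside 9.52% of all genes. It was Hotairm1, at 3.04 (1.963 to 4.64) with 34 and 72 UMIs. The antisense Hoxb3os, which shares 2250 exon bases with Hoxb3 and 953 with Hoxb2 on the other strand, gave 2.17 (1.41 to 3.25) and 0.775 (0.559 to 1.05).

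Over the 8 sums of gate and suffix, which share 2 libraries and their tag limits, the genes most alike to each member among 9266 genes with at least 500 UMIs were found by Pearson's r of log2 levels, as a description. For Hoxb5 they were Selenom and Sla2 (0.994 and 0.991), for Hoxb2 Khk and Nav2 (0.995 and 0.994), for Hoxb3 5033406O09Rik and Dennd5b (0.991 and 0.991), and for Hoxb4 Nkx2-3 and Rab11fip3 (0.988 and 0.988). Among the HOXA members, Hoxa5 was nearest to Sertad2 and Ebpl (0.988 and 0.988) and Hoxa10 to Rchy1 and Camk2d (0.987 and 0.970). Hoxa3 was nearest to Rps13 and Tbc1d17 (0.975 and 0.973), Hoxa9 to Ncoa3 and Rgs3 (0.976 and 0.970), and Hoxa7 to Pced1b and Snupn (0.929 and 0.896). Between members, Hoxb2 and Hoxb3 had an r of 0.972, whereas Hoxa9 and Hoxb2 had one of -0.767. Hoxb6 had too few UMIs for this search.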

How the data were processed

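The authors sorted LSK cells of young and old mice and made 1 CITE-Seq library per age. Per the labels, Cell Ranger 3.1.0 and mm10 (GRCm38) were used. The authors combined the libraries with an aggregation step that normalized them to each other, and deposited UMI counts per gene and cell and log10 tag values, of which 1 column (unmapped tags) was not used here. The depth behind each value is that after aggregation.

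From the deposited counts, 4068 of 4688 cells passed the filters, of which 82 lacked tag values. UMIs were summed per gate and suffix and divided by all UMIs of those cells. Levels carry exact Poisson, ratios exact conditional binomial and shares exact Clopper-Pearson intervals, and the ratio of ratios a normal interval on the log scale. Genes with at least 50 UMIs over the cells compared were counted at 2-fold. UMIs are not scaled for length, so levels are compared within a gene. Gates were compared within each suffix and over both. The 2 libraries differ in age and are not replicates of a condition, so no test was run across them. Scrublet (scanpy 1.11.5), run on each suffix, marked 5 cells (0.328%) and 32 cells (1.26%) as doublets, and they were kept. Gene positions are from GENCODE M21. Python 3.11.15, numpy 2.4.6 and scipy 1.17.1 were used, and the ratios were tested on simulated data. Members, gene lists and gates were chosen with earlier results of these data known. Named genes are the members, genes of each list with most UMIs or past 2-fold, gate markers, and the 2 genes most alike to each member. The TALE list as a whole is not reported here. The alternatives tried are given in the closing section.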

Additional observations from a re-analysis of the deposited data

Results flagged for a closer look

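Hoxa7 was the 1 member whose ratio of CD150-high CD48-low over CD150-low CD48-high cells pointed in opposite directions in the libraries, at 0.822 in suffix 1 and 1.13 in suffix 2. The difference between the libraries was not tested, since each is 1 sample.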

How the results depend on the processing

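The number of members at least 2-fold higher in CD150-high CD48-low than in CD150-low CD48-high cells was 6 and lay between 4 and 7 under 13 alternatives, and the HOXB sum stayed higher under all 13. The HOXB ratio of these gates, 3.47, moved to 5.41 with under 5% mitochondrial UMIs and over 2500 genes (57 and 238 cells), 4.00 with tag limits common to both suffixes, 2.85 with the 90th and 10th percentiles as limits, 3.102 as a mean of single-cell values, 2.45 as UMIs per cell, 3.21 after thinning, 2.65 in suffix 1 and 3.11 as the mean over suffixes. The HOXA ratio, 1.16, turned to 0.821 as UMIs per cell, which leaves out the scaling by total UMIs, and moved to 1.05 with the 90th and 10th percentiles, 1.08 as a mean of single-cell values, 1.09 after thinning, 1.02 in suffix 1 and 1.25 in suffix 2. The HOXB ratio over the HOXA ratio, 2.98, moved to 4.49 with the stricter cell filter, 3.38 with common limits, 2.70 with the 90th and 10th percentiles and 2.61 in suffix 1. Between suffixes in the stem cell gate, the HOXB ratio of 1.85 moved to 2.37 with the stricter filter, 1.24 with common limits and 1.44 with the 90th and 10th percentiles, and the HOXA ratio of 1.06 to 1.21 with that filter and 1.24 with those percentiles. The cause of the other moves was not tested. Of 130 values of single members, 87 stayed within the counting interval of the value reported and 43 did not. Of members whose reported interval left out 1, 0 values turned to the other side of 1. The interval of Hoxa7 held 1, and its ratio ranged from 0.733 to 1.255. In suffix 1 alone 4 members passed 2-fold with Hoxb6 counted, which had too few UMIs for the count in the report. The doublet alternative for CD150-high CD48-high cells was chosen after seeing the data.

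No paired test was run, since the 2 libraries differ in age and are not replicates of a condition. Gate ratios were taken within each suffix, and their mean over the suffixes is given above. Of the members, Hoxb6 in suffix 1 had the fewest UMIs, 40 over all gates.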

Other observations

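Within CD150-high CD48-low cells, those with a UMI of Vwf, the von Willebrand factor gene that marks platelet-primed stem cells, had a HOXB sum 1.36 (1.22 to 1.53) times that of the rest over both suffixes. Within the suffixes the ratio was 1.25 (0.9304 to 1.67) and 1.01 (0.873 to 1.16), and 37 of 172 cells of suffix 1 had such a UMI against 284 of 383 of suffix 2. Cells of this gate above the median CLCA3A1 tag of their suffix gave HOXB ratios of 1.300 (1.01 to 1.68) and 0.983 (0.873 to 1.11) and HOXA ratios of 0.962 (0.813 to 1.14) and 1.04 (0.9304 to 1.15) over the other cells of the gate.

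Among the 3986 kept cells with tags, the highest 10% of each suffix by Mpo, the myeloperoxidase gene of granulocyte and monocyte precursors, had HOXB sums of 0.523 (0.429 to 0.631) and 0.298 (0.259 to 0.342) times those of the rest and HOXA sums of 0.906 (0.841 to 0.974) and 0.643 (0.603 to 0.686) times. Of the members, Hoxa7 gave 1.09 (0.948 to 1.24) and 0.862 (0.773 to 0.959) there and Hoxa10 gave 0.611 (0.457 to 0.803) and 0.239 (0.178 to 0.315). The 86 cells with a UMI of Gata1, an erythroid and megakaryocyte factor, had both sums lower in both suffixes, with HOXA ratios of 0.593 (0.473 to 0.735) and 0.672 (0.588 to 0.765) and HOXB ratios of 0.503 (0.292 to 0.809) and 0.652 (0.528 to 0.798). Both groups were deeper than the rest, with a median of 25873 against 14407 UMIs for Mpo and 22965 against 14892 for Gata1, and the part of depth in these ratios was not tested.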
